A study of Homo sapiens with 3 samples.

Results

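The regions described here are the peaks of VCP on chromatin that lay away from genes. A VCP peak was taken when its summit was outside every protein-coding gene and more than 1 kb from the end of every annotated gene, coding or not. Of the 1816 peaks in the VCP list, 1578 lay on chromosomes 1 to 22, X and Y outside segments of chromosomes 8, 10 and 17 that were left out, and 719 of these met the rule (45.6%, exact binomial 95% interval 43.1 to 48.1). They are called intergenic VCP peaks below, although the rule lets a summit lie in the body of a non-coding gene, and 168 of the 719 did. Of the other peaks in scope, 425 had a summit within 1 kb of a gene end and 434 lay deeper inside protein-coding genes.

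The peaks come from HCT116, a human colorectal cancer cell line, made to overexpress VCP with a Flag tag. Chromatin was fixed, cut with micrococcal nuclease and pulled down by a VCP antibody in 1 sample and a Flag antibody in another, and an input was sequenced beside them. All 3 samples, the input included, came from cells given as carrying the tagged protein, and no library from cells without it was used here. The sources used here do not name the promoter that drove the tagged gene, nor whether the cells were 1 clone. Each antibody had 1 library, so the values below describe 2 lists of peaks with no replicate, and no test between conditions was made. Intervals are 95% intervals that treat peaks or reads as independent; they speak for counting error alone, because PCR copies of a molecule count as separate reads and neighbouring peaks share their chromatin.

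VCP, also called p97, is an ATPase that pulls ubiquitin-tagged proteins out of larger assemblies, and on chromatin its known clients include replication and repair proteins and stalled RNA polymerase. It is not known to read a DNA sequence by itself, so its place on chromatin is usually described through the proteins it acts on. Sequence between genes holds enhancers and insulators, and also repeats and satellite arrays, where reads of similar copies are hard to place.

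Both lists held mostly weak peaks. An intergenic VCP peak rested on a median of 10 reads at its summit (quartiles 9 and 12, range 7 to 702), and 547 of the 719 rested on 8 to 12 reads. The lowest local background, the read level that the peak caller set each summit against, was 1.74 reads for VCP and 1.85 for Flag, and this lowest level is called the floor below. The Flag list was longer, with 5719 peaks, of which 1597 of the 5080 in scope met the same rule (31.4%, 30.2 to 32.7). All coordinates are 1-based on hg38.

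Intergenic VCP peaks lay farther from genes than the sequence open to them. Their summits were a median of 24.6 kb from the nearest gene end (95% interval 20.8 to 28.1, quartiles 9.35 and 63.5 kb). As a background, a grid of positions every 1 kb was laid over 2712 Mb of the chromosomes, and 1420 Mb of it (52.3%) met the same rule. The share of VCP peaks in scope that met the rule, 45.6% (43.1 to 48.1), was below that share of sequence. On that eligible sequence the median distance was 17.7 kb, and for Flag peaks under the rule it was 14.1 kb (12.4 to 15.97). The order was the same for protein-coding genes alone. There the medians were 188 kb for intergenic VCP peaks (167 to 224), 105 kb for the eligible sequence and 82.6 kb for Flag peaks (70.9 to 96.6). The grid left out gene-free stretches over 2 Mb, while the medians of peaks include 16 VCP and 27 Flag peaks outside the grid. Without those 16 the VCP median to any gene end was 23.6 kb, and the other medians were not taken that way.

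**Figure D1:**
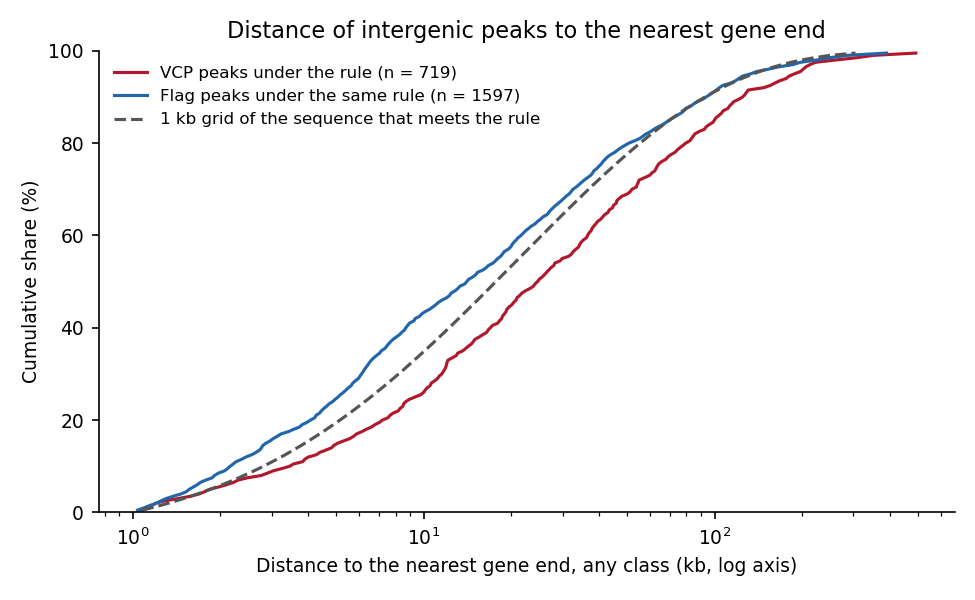
Cumulative share (%) of peaks or grid positions against the distance to the nearest gene end of any class (kb, log axis), for intergenic VCP peaks (red), Flag peaks under the same rule (blue) and the eligible sequence (dashed). The curves cross 50% at 24.6 kb, 14.1 kb and 17.7 kb, with VCP to the right of the eligible sequence and Flag to its left.

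Put as a rate, intergenic VCP peaks grew denser with distance. Eligible sequence held 4.95 VCP peaks per 10 Mb over all (4.59 to 5.33, from the 703 peaks on the scanned sequence). The rate was 3.84 per 10 Mb (3.15 to 4.65) at 1 to 5 kb from a gene end and 4.50 (3.92 to 5.14) at 5 to 20 kb. It was 5.35 (4.75 to 6.002) at 20 to 100 kb and 7.44 (6.01 to 9.11) at 100 to 500 kb. The intervals of the nearest and the farthest of these bins did not overlap, while neighbouring bins overlapped from 1 to 100 kb. The Flag list ran the other way, from 14.3 per 10 Mb at 1 to 5 kb down to 9.60 at 100 to 500 kb. Local background moved with distance in the VCP list, from a median of 2.08 reads in the nearest bin to 2.96 at 100 to 500 kb, and its part in the trend was not tested.

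Among the peaks nearest to the 1 kb limit, a peak 1004 bp from the non-coding gene LOC124906027 had a fold enrichment of 3.12. The next was 1037 bp from HCG9, a non-coding gene of the major histocompatibility region, with 3.65, and the third was 1058 bp from LINC01414, with 3.11. Just short of the limit, and also outside protein-coding genes, were peaks 977 bp from NEURL4 (fold enrichment 3.65), 894 bp from LINC01509 (4.01) and 865 bp from LOC105375142 (2.92). Fold enrichment is the authors' ratio of reads at the summit to local background, with 1 read added to each. The values on both sides of the limit covered a similar range.

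The peaks farthest from any gene lay in long stretches with no annotated gene, which include assembly gaps and centromeric sequence. Of the intergenic VCP peaks, 16 were in gene-free stretches of more than 2 Mb. The farthest, chr1:125162832-125163102, was 3591 kb from the pseudogene EMBP1, with 13 reads over a background of 5.14 and a fold enrichment of 2.28. Next were 3 peaks of chromosome 7, chr7:61867115-61867303, chr7:62248344-62248607 and chr7:62413617-62413925, at 874, 763 and 598 kb. These 3 rested on 9 to 10 reads and had fold enrichments of 3.08 to 3.18, close to the median of all intergenic peaks. The fifth, chr4:60332987-60333193, was 417 kb from LINC02496 and had a fold enrichment of 3.35. None of the 5 overlapped a Flag peak.

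The nearest gene was most often non-coding, much as in the eligible sequence. For 368 intergenic VCP peaks (51.2%) it was a long non-coding RNA gene, against 47.8% of the eligible sequence, and for 204 (28.4%) a pseudogene, against 26.7%. A protein-coding gene was the nearest for 106 peaks (14.7%, 12.2 to 17.5), below the 20.3% of the eligible sequence and the 24.4% of Flag peaks under the rule. Where a strand was known for the nearest gene, in 292 cases, its nearer end was the start for 126 (43.2%), against 46.4% of the eligible sequence and 50.9% of Flag peaks. Summits of intergenic VCP peaks were thus not listed nearer to starts than to the other ends.

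Bodies of non-coding genes held VCP peaks at about the share of sequence they take up. They contained 168 intergenic VCP peaks (23.4%, 20.3 to 26.6), and 24.3% of the eligible sequence. Of these, 153 lay in long non-coding RNA genes, and pseudogenes, transcribed or not, held most of the rest. EGFEM1P, a transcribed pseudogene, and LOC107984361 contained 3 each. SOX2-OT, a long transcript that overlaps the pluripotency gene SOX2, contained 2 peaks, the higher with a fold enrichment of 3.503. SAMMSON, a long non-coding RNA first described in melanoma, also contained 2, with a highest fold enrichment of 3.26. The median fold enrichment was 3.13 inside non-coding genes (3.04 to 3.21) and 3.23 outside all genes (3.18 to 3.27).

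Intergenic VCP peaks lay in gene-poor neighbourhoods. The 1 Mb around a summit overlapped a median of 2 protein-coding genes (quartiles 1 and 5), against 3 for the eligible sequence and 4 for Flag peaks under the rule. For the other VCP peaks the median was 4 in gene bodies and 13 at gene ends. No protein-coding gene at all was within that window for 168 intergenic VCP peaks (23.4%, 20.3 to 26.6), against 15.8% of the eligible sequence and 14.3% of Flag peaks (12.7 to 16.2). Of these 168, 159 lay on the scanned sequence, which leaves out gene-free stretches over 2 Mb. Per 10 Mb of eligible sequence, the rate was 7.10 (6.04 to 8.29) with 0 genes and 6.72 (5.93 to 7.59) with 1 to 2. It was 3.86 (3.23 to 4.59) with 3 to 5, 3.03 (2.42 to 3.75) with 6 to 10 and 3.59 (2.81 to 4.53) with more than 10. The Flag rate stayed between 9.41 and 10.4 in the first 4 of these classes and was 18.0 (16.2 to 19.98) with more than 10 genes. The fall in the VCP rate rested on the whole list, most of it with q above 0.05. Among VCP peaks with q of at most 0.05 the rate did not fall steadily. In the same order of classes it was 0.134 (0.0276 to 0.391), 0.362, 0.0300, 0.144 and 0.152 (0.0313 to 0.444). These rates came from 1 to 14 peaks each. For Flag peaks at that q it was 1.21 with 0 genes and 6.22 with more than 10.

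In the VCP list, peaks at the floor of local background and peaks above it ran in opposite directions with gene density. At the floor, where 168 intergenic VCP peaks lay, the rate was 0.848 per 10 Mb (0.511 to 1.32) with 0 genes and 2.07 (1.49 to 2.81) with more than 10. Above the floor it was 6.25 (5.26 to 7.37) with 0 genes and 1.52 (1.02 to 2.167) with more than 10. Among listed peaks, the fall with gene density was thus present above the floor and not at it. Flag peaks at the floor rose from 2.01 (1.46 to 2.69) to 9.01 (7.73 to 10.4) over the same classes, while Flag peaks above the floor did not run the opposite way, with 7.54 at 0 genes, 5.27 at 3 to 5 and 9.01 at more than 10. The background is known only at listed peaks and not over the eligible sequence, so these rates cannot be put per length of sequence at each background. Why listed peaks in gene-poor regions had a higher background, copy number and mappability included, was not tested.

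**Figure D2:**
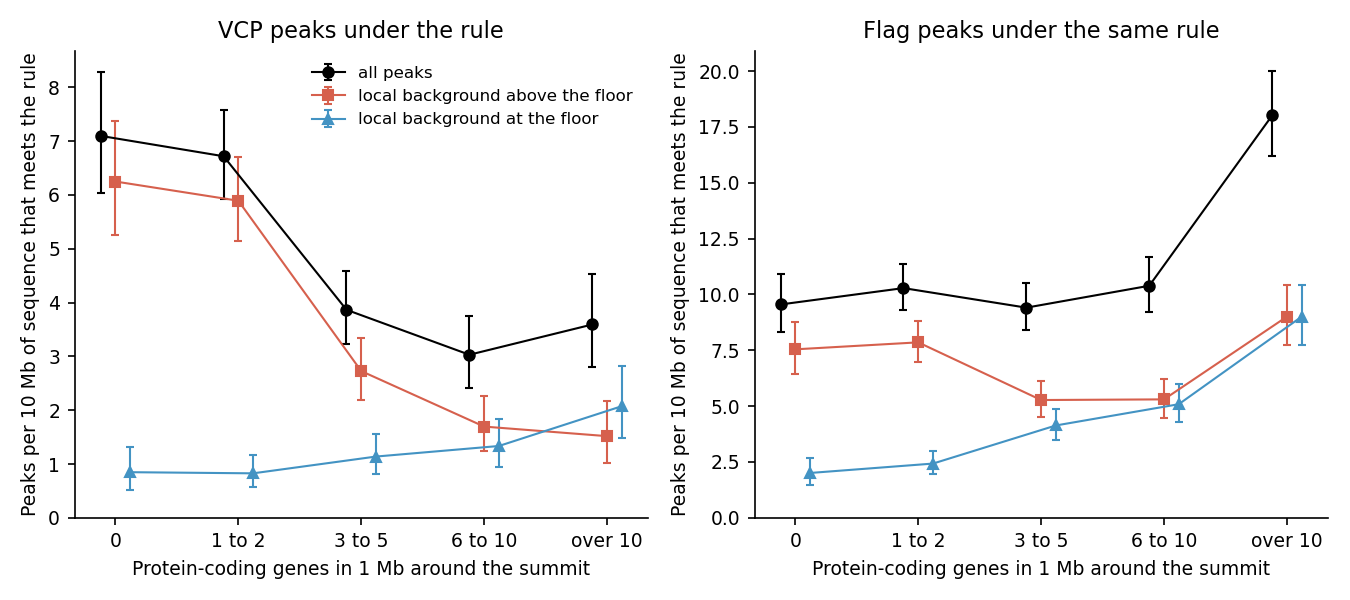
Peaks per 10 Mb of eligible sequence (y axes, different scales) by the number of protein-coding genes in 1 Mb around the summit, for intergenic VCP peaks (left) and Flag peaks under the same rule (right). Points are rates with exact Poisson 95% intervals, in black for all peaks, in orange above the floor of local background and in blue at it. VCP falls from 7.10 to 3.59, with the orange points falling and the blue ones rising.

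By chromosome, most rates lay near the rate over all. The highest were 9.10 per 10 Mb on chromosome 16 (6.30 to 12.7), 8.52 on the part of chromosome 8 that was kept (5.66 to 12.3), 8.22 on chromosome 19 (4.70 to 13.4) and 8.08 on chromosome 21 (4.93 to 12.5). Chromosome 12 had 3.08 (1.85 to 4.81). The X chromosome had 14 peaks and a rate of 1.47 (0.802 to 2.46), the lowest of the 23 chromosomes with an intergenic VCP peak. Of these 14, 78.6% were at the floor of background, against 23.4% of all 719, and the Flag rate, 4.92, was also the lowest of those 23. Neither list had a peak on Y. The number of copies of each chromosome in these cells was not measured here.

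**Figure D3:**
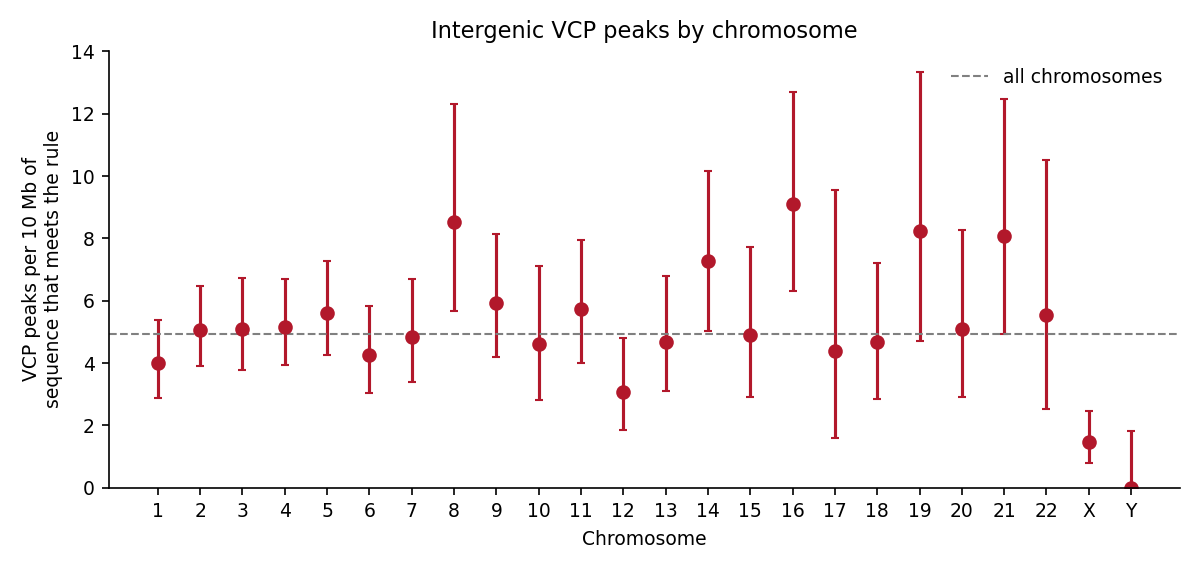
Intergenic VCP peaks per 10 Mb of eligible sequence (y axis) for each chromosome (x axis), with exact Poisson 95% intervals. The dashed line is the rate over all chromosomes, 4.95, and X lies below it at 1.47, while Y has 0 peaks.

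Most intergenic VCP peaks had no other within 50 kb. The nearest other intergenic peak was a median of 607 kb away (512 to 697), and 66 of the 719 (9.18%, 7.17 to 11.5) had another within 50 kb. Counting VCP peaks of any kind as neighbours, 81 had another within 50 kb (11.3%, 9.05 to 13.8). This was close to the 11.0% of all VCP peaks in scope, a set that includes them. Flag peaks under the rule had another of their own kind within 50 kb in 23.1% of cases, from a set more numerous per length of sequence. The share that even scatter at 4.95 peaks per 10 Mb would give was not computed. These values therefore do not tell whether intergenic VCP peaks lay closer together than even scatter. Chains of peaks no more than 50 kb apart gave 653 single peaks, 28 pairs, 2 groups of 3 and 1 group of 4. Of the gaps between neighbouring genes that held any intergenic peak, 441 held 1, 40 held 2, 6 held 3 and 3 held 4.

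The group of 4 lay on chromosome 20 between the pseudogenes FRG1CP and FRG1DP, with summits from 28764540 to 28861025. Its fold enrichments ran from 2.175 to 4.24 over backgrounds of 2.33 to 7.28 reads, and none of the 4 overlapped a Flag peak. On chromosome 3 the 3 peaks inside EGFEM1P had summits from 168589318 to 168641877 and fold enrichments of 3.18 to 3.49, and 1 of them overlapped a Flag peak. On chromosome 13 a group of 3 from 18750549 to 18803385 lay between CYP4F34P and SNX18P26, with fold enrichments of 3.49 to 5.11 at or near the floor of background. The tightest pair was on chromosome 7, with summits 1392 bp apart at 46468947 and 46470339, in a gene-poor region whose nearest protein-coding gene was IGFBP3, an insulin-like growth factor binding protein, 548 kb away. The pseudogenes around the groups on chromosomes 20 and 13 belong to families of similar copies, and how their reads were placed was not tested.

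At a broader scale, the start of chromosome 5 held the most intergenic VCP peaks. Over windows of 10 Mb, chosen after the values were seen, its first 10 Mb had 15 peaks on 6.71 Mb of eligible sequence, or 22.4 per 10 Mb. The first 10 Mb of chromosome 16 had a higher rate, 28.2 per 10 Mb, from 8 peaks. IRX2, a homeobox gene of the Iroquois family, was the nearest protein-coding gene to 4 peaks. The 15 had a median fold enrichment of 3.04 and a median background of 3.10 reads, the Flag list had 4 peaks there under the rule, and 0 of the 15 overlapped a Flag peak. The next by count were 60 to 70 Mb of chromosome 4, with 13 peaks, where the adhesion receptor gene ADGRL3 and TECRL were the nearest protein-coding genes to 4 each, and 60 to 70 Mb of chromosome 7, with 10. The median background in these windows was 2.96 and 2.57 reads, and what set it was not tested.

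In strength, intergenic VCP peaks were below those at gene ends. Their median fold enrichment was 3.18 (3.16 to 3.24, range 1.66 to 6.20), against 3.53 at gene ends (3.46 to 3.65) and 3.28 in gene bodies (3.18 to 3.28). A q of at most 0.05, as given by the authors' peak caller, was reached by 28 of the 719 (3.89%, 2.60 to 5.58), against 6.21% of all VCP peaks in scope. The share was 10.8% at gene ends (8.03 to 14.2) and 5.53% in gene bodies (3.57 to 8.12). Against gene bodies the intervals overlapped for both measures. In the Flag list 392 of 1597 peaks under the rule passed (24.5%, 22.5 to 26.7), against 32.8% of all Flag peaks in scope, so intergenic peaks were below the whole list there too.

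Local background differed between the classes as strength did. Its median was 2.57 reads at intergenic VCP peaks (2.43 to 2.61), 2.34 in gene bodies and 1.94 at gene ends (1.86 to 2.14), while the median number of reads at the summit was 10 in each. Background was at the floor for 23.4% of intergenic peaks, 30.4% of those in gene bodies and 41.9% of those at gene ends. Among peaks at the floor, the median fold enrichment was 3.58 for intergenic peaks (3.28 to 3.65), 3.65 in gene bodies (3.28 to 3.65) and 3.65 at gene ends. At the floor the intervals of the intergenic and gene-body medians both reached the gene-end median. Among those at the floor, q was at most 0.05 for 8 of 168 intergenic peaks (4.76%, 2.08 to 9.17) and 19 of 178 at gene ends (10.7%, 6.55 to 16.2), and these intervals overlapped.

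**Figure D4:**
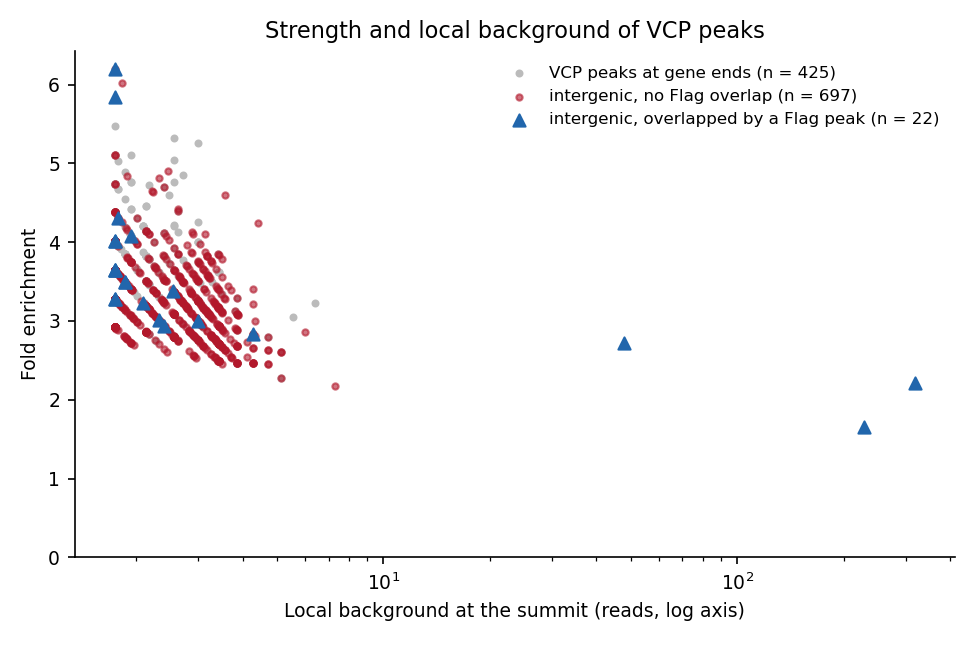
Fold enrichment (y axis) against the local background at the summit in reads (log axis), 1 point per peak, for VCP peaks at gene ends (grey), intergenic VCP peaks without Flag overlap (red) and those overlapped by a Flag peak (blue triangles). The points lie on curves because reads are whole numbers, and 3 intergenic peaks, all overlapped by Flag, stand at backgrounds of 47.9 to 317 reads.

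The 3 highest −log10 q values among intergenic VCP peaks belonged to regions with very high background in both lists. At chr16:46390602-46390791, 78.6 kb from the pseudogene ANKRD26P1, the VCP library had 702 reads over a background of 317, a fold enrichment of 2.21 and a −log10 q of 68.6. The Flag library had 742 reads over 336 at the overlapping peak, a fold enrichment of 2.20. At chr16:34588034-34588336 the VCP values were 380 reads over 229 (fold enrichment 1.66) and the Flag values 431 over 242 (1.78). At chr17:26881279-26881474 they were 132 over 47.9 (2.72) and 138 over 54.9 (2.49). The backgrounds were whole multiples of a fixed step, 0.428 reads for VCP and 0.454 reads for Flag, within 0.005 of a step. Each step was the list's highest background divided by a whole number, chosen to give the most whole multiples. The highest VCP background was that of the first region, so its whole number of steps was fixed by construction. The backgrounds came to 741 steps in both lists at the first region and 534 in both at the second, and to 112 and 121 steps at the third. The counts of steps were thus equal between the lists at the first and the second region, and differed at the third. A control track shared by both lists and scaled to each would give equal counts, and this was not tested. The match in background is not read here as a measurement by the antibodies. At all 3 regions the background itself was high in both lists. The sources used here do not name a control track, and the reads of the input were not used here.

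Below these, the strongest intergenic VCP peaks by fold enrichment rested on 13 to 16 reads. Both chr14:19484024-19484231, 1159 bp from the pseudogene MED15P1, and chr17:39046995-39047223, inside the transcribed pseudogene LRRC37A11P, had 16 reads over the floor and a fold enrichment of 6.20. The second was also in the Flag list, with 21 reads and a fold enrichment of 7.73. The peak at chr15:20256975-20257247, 19.7 kb from the pseudogene RHPN2P1, had a fold enrichment of 6.02. At chr19:44742040-44742268, 5.51 kb from BCL3, which encodes a nuclear partner of NF-kappa-B subunits, 15 reads gave a fold enrichment of 5.84, and the overlapping Flag peak had 7 reads and 2.81. The fifth, chr13:18750412-18750613, had 13 reads and 5.11 and belongs to the group on chromosome 13 above. By −log10 q the next after BCL3 was chr9:118828411-118828632, 338 kb from BRINP1, a gene expressed in neurons, with 20 reads and a fold enrichment of 4.60.

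Few intergenic VCP peaks were shared with the Flag list. A Flag peak overlapped 22 of the 719 by at least 1 bp (3.06%, 1.93 to 4.60), against 10.3% of all VCP peaks in scope. The share was 28.0% at gene ends (119 peaks, 23.8 to 32.5) and 4.84% in gene bodies (21 peaks, 3.02 to 7.30). Among peaks at the floor of background it was 5.95% for intergenic peaks (2.89 to 10.7) and 29.2% at gene ends (22.7 to 36.5). In gene bodies at the floor it was 7.58% (3.69 to 13.5). The part of background in the gap to gene ends was not tested. Of Flag peaks in scope, 31.4% met the intergenic rule, and the part of their placement in these shares was not tested either. Looking wider, a Flag summit was within 10 kb of 54 intergenic VCP peaks (7.51%) and within 50 kb of 120 (16.7%), against 41.2% and 53.9% of those at gene ends. The summits of overlapping peaks were a median of 44.5 bp apart. Of the 22, 17 had a q above 0.05 in the VCP list, and 12 of the overlapping Flag peaks had a q of at most 0.05.

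The shared peaks lay nearer to genes and in gene-richer sequence than the rest. Their median distance to the nearest gene end was 7.17 kb (3.47 to 18.6), against 25.5 kb (21.7 to 29.5) for the 697 not shared. A median of 8 protein-coding genes was within the 1 Mb around them (3 to 25), against 2. Of intergenic VCP peaks with more than 10 such genes, 14.1% were overlapped by Flag (6.97 to 24.4), and of those with 0 genes 1.19% (0.144 to 4.23). Listed Flag peaks were also more frequent in gene-rich sequence, by the rates given above, and their part in this difference was not tested. Without the 3 peaks of very high background, 19 of 716 were shared.

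**Figure D5:**
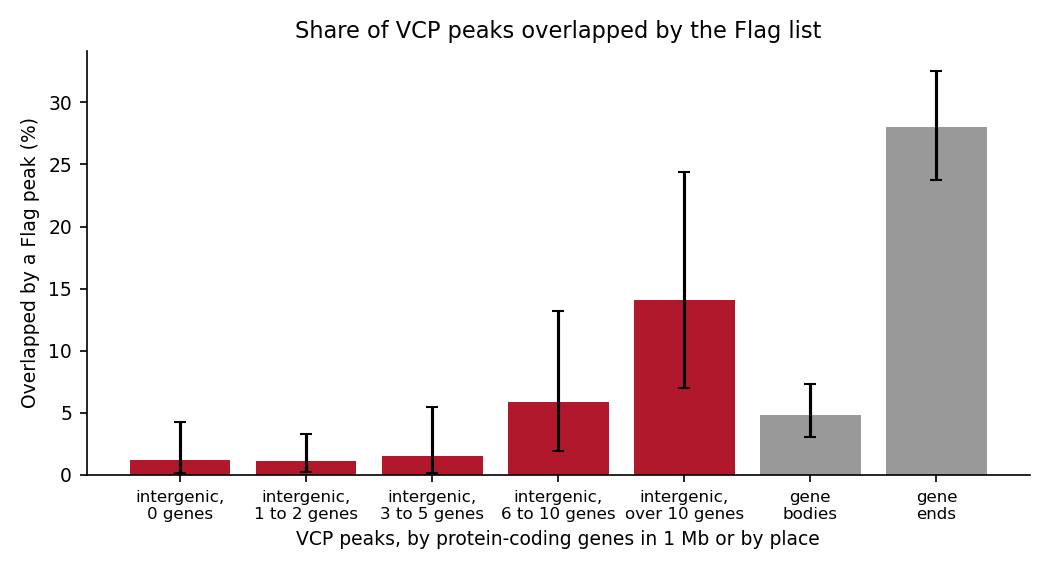
Share (%) of VCP peaks overlapped by a Flag peak (bars from 0, exact binomial 95% intervals), for intergenic VCP peaks by protein-coding genes in 1 Mb (red) and for VCP peaks in gene bodies and at gene ends (grey). The share is 1.19% with 0 genes, 14.1% with more than 10, and 28.0% at gene ends.

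Besides LRRC37A11P and BCL3, the rule for named regions took 6 shared peaks, near HMGN2, KLF14, CLEC10A, CCNL1, PPCDC and FOSL2. At chr1:26500312-26500647, 23.9 kb from HMGN2, which encodes a nucleosome-binding protein, VCP had 11 reads and a fold enrichment of 4.31, and Flag 14 reads and 5.27. At chr7:130908293-130908503, in the body of LINC-PINT and 174 kb from the Krüppel-like factor gene KLF14, VCP had 11 reads and 4.08, and Flag 12 reads and 3.11. Chr17:7060544-7060736, 13.9 kb from the lectin gene CLEC10A, had 10 VCP reads (4.01) and 16 Flag reads (5.97). Chr3:157174753-157175135, 14.95 kb from CCNL1, which encodes a cyclin linked to RNA splicing, had 10 VCP reads (4.01) and 17 Flag reads (6.32). Chr15:75104686-75104876, 54.0 kb from PPCDC, an enzyme of coenzyme A synthesis, had 9 VCP reads (3.65) and 12 Flag reads (4.57). At chr2:28390185-28390506, 2.41 kb outside FOSL2, which encodes a subunit of the AP-1 transcription factor, VCP had 9 reads (3.65) and Flag 10 (3.37). Of these 6, the Flag peaks near HMGN2, CLEC10A, CCNL1 and PPCDC had a −log10 q of 2.51 to 6.30, while the VCP peaks had 0.389 to 1.13. Near KLF14 and FOSL2 the Flag fold enrichments, 3.11 and 3.37, were below those of VCP, 4.08 and 3.65.

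The remaining shared peaks, named after their values were seen, included chr11:65419146-65419389, 3.47 kb from NEAT1, the long non-coding RNA that builds paraspeckles, with 9 VCP and 16 Flag reads, a VCP fold enrichment of 3.01 and summits 360 bp apart, the widest of the 22. Others lay 6.83 kb from the zinc finger gene GLIS2, 2.96 kb from SHISA5, 37.0 kb from CDCP1, which encodes a membrane protein of epithelial cells, and 46.2 kb from PTMA, the prothymosin alpha gene. These last 4 had VCP fold enrichments of 3.28 to 3.65. The peaks nearest to CCDC90B, ZNF736, DUX4, IGFBP3 and GOLIM4 and 1 more on chromosome 16, 10.6 kb from the pseudogene CLUHP11, had VCP fold enrichments of 2.84 to 3.38. Such a gene is only the nearest one in the annotation, and no value here ties a peak to its activity.

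The protein-coding genes nearest to intergenic VCP peaks were spread thin. In all 541 of 19866 protein-coding genes (2.72%) were the nearest to at least 1. LOC124903767 and NCAM2, a neural cell adhesion gene, were each the nearest to 6, and ZP4, CRIM1, LOC124904970 and LOC124901649 to 5. Among those nearest to 4 were SOX11, a developmental transcription factor gene, LRRC4C, a synaptic adhesion gene, and TLE4, a transcriptional corepressor gene. The eligible sequence nearest to such genes varied widely. It was 3.18 Mb for NCAM2, whose nearest intergenic peak was 992 kb away, and 2.58 Mb for LRRC4C, but 0.732 Mb for ZP4, 0.631 Mb for LOC124901649 and 0.779 Mb for IRX2.

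Most lists of genes were read against the share of eligible sequence to which their members are the nearest protein-coding genes. Cadherin and protocadherin genes, which encode cell adhesion proteins, had 13 of 36 nearest to an intergenic VCP peak, CDH5 (fold enrichment 4.02), CDH9 (3.98) and CDH19 (3.88) among them. They were the nearest gene of 20 peaks (2.78%, 1.71 to 4.26), and the nearest of 2.39% of the eligible sequence. Zinc finger genes were nearest to 13 peaks (1.81%, against 1.72% of the sequence), among them ZNF716 with a fold enrichment of 4.40, and olfactory receptor genes to 10 (1.39%, against 1.01%). Solute carrier genes were nearest to 6 (0.834%, 0.307 to 1.81, against 1.49%), SLC7A11, which encodes the cystine transporter, among them, and the interval included that share.

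The lists tied to this cell type, to signalling or to VCP rested on 0 to 3 peaks each, so their shares have wide intervals. Of 25 regulators and markers of colon and gut epithelium, 2 were nearest to a peak (8.00% of the list, 0.984 to 26.0), against 2.72% of all protein-coding genes. They were KLF5, a gut transcription factor gene, at 265 kb and KRT8, an epithelial keratin gene, at 23.2 kb, and they made up 0.278% of peaks, against 0.215% of the eligible sequence for the list. Of 29 AP-1 and immediate early genes there were 3 (10.3%, 2.19 to 27.4), SPRY4 at 28.3 kb, FOSL2 and NR4A3 at 173 kb, with 0.417% of peaks against 0.421% of the sequence. Of 24 p53 targets there was PHLDA3 at 8.29 kb (4.17%, 0.105 to 21.1), with a fold enrichment of 4.01 and 0.139% of peaks against 0.0924% of the sequence. Of 38 genes of VCP and its cofactors there was UBXN2B (2.63%, 0.0666 to 13.8), whose product binds VCP, at 128 kb with 9 reads, a fold enrichment of 3.504 and 0.139% of peaks against 0.150%. None of 22 WNT targets and none of 20 NF-kappa-B targets was the nearest gene of an intergenic VCP peak, and the sequence nearest to them was 0.186% and 0.0740% of the whole.

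Keratin-associated protein genes, which encode hair proteins and lie in tight clusters, were nearest to a larger share of peaks than of sequence. Of 94 there were 2, KRTAP13-1 and KRTAP19-1, both on chromosome 21, with 0.278% of peaks (0.0337 to 1.00) against 0.0669% of the sequence. The interval from these 2 peaks included that share.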

How the data were processed

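Chromatin immunoprecipitation and sequencing gave 1 library each for the VCP antibody, the Flag antibody and the input of HCT116 cells. Per the labels' protocols, libraries were made from chromatin cut with micrococcal nuclease. Per the submitters' processing notes, the tools were bcl2fastq 2.17, Trimmomatic 0.33, Bowtie 1.1.2 and MACS2 2.1.0, with hg38. The settings of these tools were not given in the sources used here, and there is 1 list per library.

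The deposited lists give, per peak, a score, which was not used, the fold enrichment, and the authors' −log10 p-value and −log10 q-value. Fold enrichment is the authors' ratio of reads at the summit to local background, with 1 read added to each. All of these are the peaks' own values within a list. At shared peaks the values of both lists are printed together, and no test was made between the lists. The lowest deposited −log10 p was 3.00, so the list appears to be cut on p and not on q, and at such a limit a higher background demands more reads. Whole reads and background were recovered from fold enrichment and p with a pseudocount of 1 read, within 0.001 for all 1803 VCP peaks on chromosomes. They are set side by side for both lists. Of the recovered backgrounds above the floor, 32.5% for VCP and 48.6% for Flag were whole multiples of 1 step, which was chosen to give the most. A scaled control track would give such steps, and this was not tested. A background within 5% of the lowest counted as the floor.

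Gene positions were those of RefSeq on GRCh38.p14 (58961 of 59792 rows kept, 19866 protein-coding). That table has no strand, so a strand was taken from a RefSeq promoter table for 27303 genes. A gene's outer ends were used. The grid ran over each chromosome between its outermost genes, leaving out 24 stretches of over 2 Mb with no gene, and shorter unmappable stretches stayed in it. Chromosome 8 from 66 Mb, 10 from 95 Mb and 17 from 40 Mb were left out; under the rule they would have added 51, 25 and 20 peaks. No genome sequence was used here.

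Shares have exact binomial (Clopper-Pearson) intervals, rates exact Poisson intervals and medians order-statistic intervals. With 1 library per antibody no test was made. The members and lists were chosen with earlier results of these data known. Named regions were the 8 peaks highest in −log10 q, the 5 highest in fold enrichment, the 5 farthest from a gene, the 8 shared peaks highest in fold enrichment, the 4 largest groups, and the 3 peaks nearest to the limit on each side, all outside protein-coding genes. From each of the 11 gene lists up to 4 genes were chosen by the fold enrichment of the nearest peak, and not all are named. Alternatives were other limits, windows, gene sets, q thresholds and overlap rules. The code was tested on simulated data. Python 3.11.15, numpy 2.4.6, pandas 2.3.3, scipy 1.17.1 and matplotlib 3.10.9 were used.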

Additional observations from a re-analysis of the deposited data

Results flagged for a closer look

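Some VCP peaks lay outside the sequence described above. Of the 1816 peaks in the VCP list, 13 were on contigs outside the chromosomes, more than the limit of 3 counts set for such a remainder. They have no place in the gene table used here and entered no value of the report, and their distance to genes is therefore not given.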

How the results depend on the processing

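The count of intergenic VCP peaks (719) stayed within 1.5 times its value in all 6 alternatives, from 531 with a limit of 10 kb to 815 with the left-out segments kept. The median distance was taken in other settings. It was 23.1 kb among peaks with q of at most 0.05, 24.9 kb with the whole peak in place of the summit and 23.6 kb without long gene-free stretches. It was not taken under other limits from a gene end, which change it by construction. The share inside non-coding genes was 17.9% among the 28 peaks with q of at most 0.05. The median of protein-coding genes per Mb was 0 in 100 kb either side and 2.5 in 1 Mb either side. Another intergenic peak was within 10 kb for 2.23%, within 100 kb for 15.9% and within 1 Mb for 62.4%, which the wider windows set by construction. Overlap with the Flag list was 1.53% when at least 50% of each peak had to overlap, 1.67% with Flag peaks of q at most 0.05 and 17.9% among intergenic peaks of q at most 0.05. Without the 3 peaks of very high background this last value was 8.00% (2 of 25). In the same 3 settings gene ends had 18.6%, 17.4% and 47.8%, above intergenic peaks each time. The share of Flag peaks under the rule was 23.5% at q of at most 0.05 and 23.1% with as many Flag peaks as VCP peaks; the cause was not tested. Settings chosen after seeing the data were peaks at the floor of background, with a median fold enrichment of 3.58 and 5.95% overlap, leaving out the 3 peaks of very high background, leaving out long gene-free stretches, and a grid without Y (52.1% eligible). The difference from gene ends in median log2 fold enrichment was -0.15, and -0.03 at the floor. No paired analysis was possible because each antibody had 1 library, so no replicate could be left out either. Depth limits these values too, with a median of 10 reads at a summit.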
